A study of Mus musculus with 6 samples.

Results

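Etv1, Etv4 and Etv5 form the PEA3 group of the ETS transcription factors, which bind DNA at a GGAA core. Their 3 genes were taken by name, by a rule that uses no measured value, though with earlier results of these data known, from 19505 genes that had a named probe set on the array. Each of them had 1 probe set. They were followed in 393P cells, a mouse lung adenocarcinoma line (9393P in some of the labels). One group carried AC9 as a stable transfection (overexpression, 3 arrays) and the other carried the empty VECTOR (3 arrays). Both groups grew in RPMI with serum and went through jetPRIME transfection and selection with puromycin or G418. The sources used here do not assign a drug to either group, so drug, cell selection and AC9 cannot be told apart in any comparison below. Nor do the labels say that replicates were separate cultures, and p-values reflect only the spread among the 6 samples, possibly a technical one.

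Receptor tyrosine kinases, in the lung above all the FGF receptors, switch on the PEA3 genes through ERK. The repressor capicua holds the same genes silent until ERK signalling removes it from their regulatory DNA. PEA3 proteins are then short-lived, because the ubiquitin ligase COP1 marks them for destruction, and in development they act in lung branching, kidney and limb. In tumours they are known for driving matrix proteases and invasion. AC9 is listed in the reference gene table as a synonym of Adcy9, adenylyl cyclase 9, which makes cAMP.

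The arrays of the 2 groups had much the same overall signal, with a median gene level of 6.42 to 6.44 (log2 intensity) in AC9 and 6.45 to 6.46 in VECTOR. Adcy9 itself read 6.78, 6.60 and 6.82 in AC9, against 6.12, 6.09 and 6.15 in VECTOR. The 2 sets of Adcy9 values did not overlap, as held with AC9 higher for 17.3% of all genes. The log2 change was 0.61 (SE 0.10, limma adjusted p 0.00264), or 1.53-fold as measured. It ranked 519 among the rises of all genes. Of 8 epithelial markers, 5 lay above the negative-control bound on every array, among them the adhesion protein Cdh1 and the keratins Krt8, Krt18 and Krt19. That bound is the 90th percentile of the negative-control probe sets of each array, on average 6.06. Adcy9 lay above the bound on all 3 arrays of each group. Its VECTOR mean of 6.12 was close to the bound, on average 6.028 in those arrays, so the size of its change is uncertain. The epithelial list summed to 70.9 to 71.6 log2 units in AC9 and 71.7 to 71.8 in VECTOR, with 1 gene called higher (Epcam, by 0.44) and 1 lower (Krt19, -0.47), and its part in the results was not tested. The lung lineage markers Nkx2-1 and Sftpc lay under it in both groups. So did 5 of 6 leukocyte markers, all 4 endothelial and 3 of 5 fibroblast markers. The leukocyte list summed to 32.9 to 33.5 log2 units in AC9 and 31.3 to 32.1 in VECTOR. Its 1 bright gene, the lipopolysaccharide co-receptor Cd14, rose by 0.91 (limma adjusted p 0.000254). Ptprc, which defines leukocytes, was under the bound in both groups. It read 4.80, 5.03 and 5.22 in AC9, against 4.39, 4.76 and 4.73 in VECTOR. These groups did not overlap, as held with AC9 higher for 17.3% of all genes, and Ptprc was not called (limma adjusted p 0.0887). The part of leukocytes in the results was not tested.

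The 3 PEA3 genes did not move together: Etv1 fell in AC9 cells, while Etv4 and Etv5 had small positive differences that did not pass the test. Of all 19505 genes, 17.6% passed a limma adjusted p of 0.05, with 8.26% of all genes higher and 9.29% lower in AC9. Against that background, 1 of the 3 PEA3 genes was called. Without AC9 replicate 1 the number of genes called over the whole array was 2174 in place of 3424.

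Etv1, also named ER81, is a PEA3 factor known for motor neuron and interneuron development and as a partner of fusion genes in human prostate cancer. Its level was 5.55, 5.27 and 5.50 (log2 intensity) in AC9, against 6.89, 6.77 and 6.66 in VECTOR. All 3 AC9 arrays were lower than all 3 VECTOR arrays, as held for 17.7% of all genes, with a gap between the groups larger than the spread within either. The means were 5.44 ± 0.15 in AC9 and 6.77 ± 0.11 in VECTOR (SD, n = 3 each). The log2 change was -1.33 (SE 0.11, 95% interval -1.58 to -1.09), with a limma adjusted p of 7.67e-05.

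The Etv1 signal was dim, which limits what its size means. In AC9 cells it lay under the negative-control bound on all 3 arrays, where 83.3%, 80.0% and 83.0% of the 5222 negative-control probe sets read lower than Etv1. In VECTOR cells 95.6%, 95.2% and 94.3% of them read lower, and Etv1 lay above the bound on all 3 arrays. Etv1 was therefore at least 1.60-fold lower in AC9, a limit computed from the VECTOR mean over the bound of each AC9 array. With the 95th percentile of the negative controls as the bound, a setting chosen after seeing the data, Etv1 was above it on 2 of 3 VECTOR arrays and 0 of 3 AC9 arrays, and no lower limit could be given. The 23 background probe sets, which have no intended transcript, differed by -0.50 to 0.01 between AC9 and VECTOR, and 19 of them were lower in AC9 without overlap. Their median difference was -0.06, and that of Etv1 was -1.33. The 5222 negative-control probe sets did not share that fall. Their 90th percentile was on average 6.094 in AC9 and 6.028 in VECTOR, and their median 4.015 in AC9 and 4.0 in VECTOR. The part of the background difference in the Etv1 change was not tested. Leaving out any 1 array gave Etv1 changes of -1.39 to -1.25, with adjusted p-values of 0.000345 to 0.000788.

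Etv4, the founding PEA3 factor, is known for inducing matrix metalloproteases in breast and other carcinomas. Its level was 8.57, 8.68 and 8.57 in AC9, against 8.31, 8.47 and 8.21 in VECTOR. The lowest AC9 array stood just above the highest VECTOR array, so that the groups did not overlap but came close. Over all genes, 35.1% had groups that did not overlap, and 17.3% did so with AC9 higher. Means were 8.61 ± 0.06 in AC9 and 8.33 ± 0.13 in VECTOR (SD, n = 3 each). The log2 change of 0.28 (SE 0.10, 95% interval 0.05 to 0.50) had a limma adjusted p of 0.0956, short of the threshold.

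Etv5, also named ERM, is the PEA3 factor required in mice for spermatogonial stem cells and used by type II cells of the lung. It read 10.30, 10.27 and 10.17 in AC9, against 9.96, 10.06 and 10.07 in VECTOR. Again no VECTOR array reached the lowest AC9 array, as held with AC9 higher for 17.3% of all genes. The spread within each group was smaller than the difference between them. Means were 10.25 ± 0.07 in AC9 and 10.03 ± 0.06 in VECTOR (SD, n = 3 each). The log2 change of 0.22 (SE 0.09, 95% interval 0.01 to 0.42) had a limma adjusted p of 0.142. With an intensity-trended robust prior both Etv4 (adjusted p 0.0411) and Etv5 (0.0281) passed, and with dim genes left out Etv4 did (0.0410) while Etv5 did not (0.0625).

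**Figure D1:**
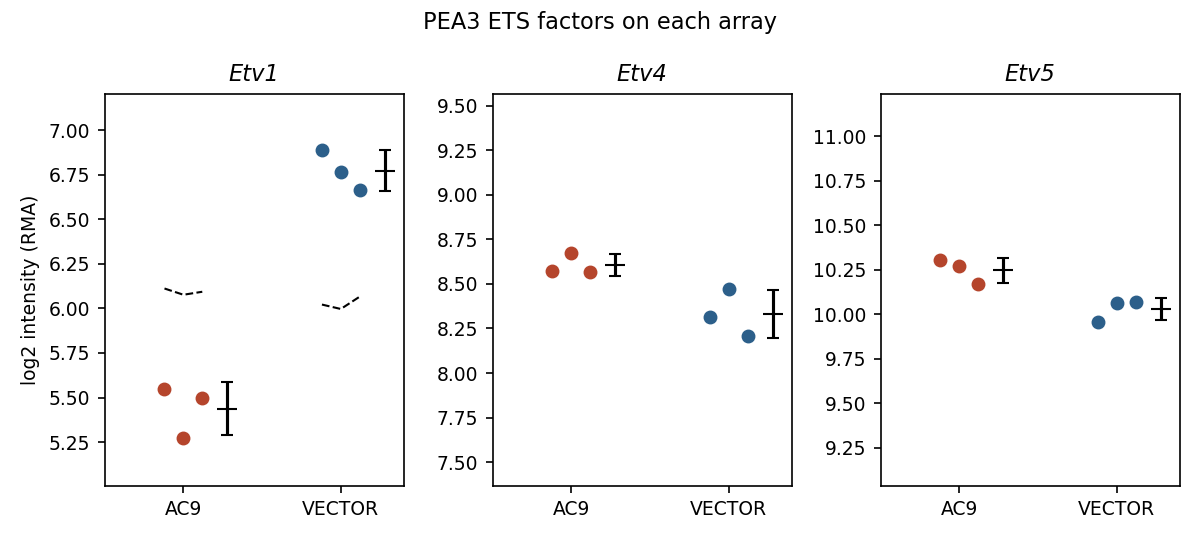
Log2 intensity of Etv1, Etv4 and Etv5 on each array, with AC9 arrays in red on the left and VECTOR arrays in blue on the right of each panel; black bars are the mean ± SD of 3 arrays, all panels span the same number of log2 units, and the dashed lines in the Etv1 panel are the 90th percentile of the negative controls. Etv1 lay at 5.27 to 5.55 in AC9, under the dashed line, and at 6.66 to 6.89 in VECTOR, above it; the shifts of Etv4 and Etv5 were 0.28 and 0.22 the other way.

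Whether the members changed differently was tested on their differences within each array, with 3 pairs compared. Etv1 lay under the negative-control bound in AC9, so the sizes given against it rest on a signal near background. The change of Etv5 exceeded that of Etv1 by 1.55 log2 units as measured. Per array, the difference Etv5 minus Etv1, set to a VECTOR mean of 0, was 1.50, 1.74 and 1.42 in AC9, against -0.19, 0.04 and 0.15 in VECTOR. For Etv4 minus Etv1 the values were 1.47, 1.85 and 1.52 in AC9, against -0.13, 0.15 and -0.01 in VECTOR, a difference of 1.61. In both pairs every AC9 array lay above every VECTOR array. The two-sided exact permutation p was 0.10 for each of these pairs (0.15 adjusted over the 3 pairs), and 0.10 is the smallest that 3 arrays against 3 can give. Etv5 minus Etv4 differed by -0.06 (exact permutation p 0.70), with overlapping groups.

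The probe annotation used here does not say which transcription start the probe sets of Etv1 and Etv5 read. RefSeq promoter windows (GRCm38.p6, 250 bases before to 50 after a start) covered 2 of the 3 genes, with 2 starts each for Etv1 and Etv5. They were searched on both strands for TGAATG, the core of the word that capicua recognises, and for 2 of its longer forms, TGAATGAA and TGAATGGA. Other longer forms were not searched. The search also covered the ETS core GGAA and the longer ETS site CCGGAAGT, which contains that core. Further words were the AP-1 site TGACTCA, the cAMP response element TGACGTCA and its shorter form TGACG, which lies within the full element. The window of the second Etv5 start and that of the first Etv1 start are shown because the one held every TGAATG match and the other held GGAA matches clustered at its start. The Etv5 window lies at chr16:22438319-22438618 on the minus strand, and capitals mark TGAATG or its reverse complement. The Etv1 window lies at chr12:38779832-38780131 on the plus strand, and capitals mark GGAA or its reverse complement. Both are written 5′ to 3′ along the gene.
Etv5, second start: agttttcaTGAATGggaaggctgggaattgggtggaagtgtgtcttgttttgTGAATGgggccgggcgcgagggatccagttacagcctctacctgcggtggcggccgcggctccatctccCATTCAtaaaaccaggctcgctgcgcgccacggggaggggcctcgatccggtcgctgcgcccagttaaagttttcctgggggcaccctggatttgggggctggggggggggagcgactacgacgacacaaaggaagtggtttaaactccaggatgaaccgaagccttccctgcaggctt
Etv1, first start: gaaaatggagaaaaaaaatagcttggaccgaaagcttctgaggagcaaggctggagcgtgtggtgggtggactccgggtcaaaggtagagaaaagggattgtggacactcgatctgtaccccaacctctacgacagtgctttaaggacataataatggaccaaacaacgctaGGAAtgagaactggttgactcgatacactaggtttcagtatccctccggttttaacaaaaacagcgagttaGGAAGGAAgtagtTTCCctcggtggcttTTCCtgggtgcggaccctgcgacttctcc

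The second Etv5 window held TGAATG 3 times, at 242, 198 and 129 bases before the start. Of 32851 promoter windows of the same length, 12.7% held it at least once and 0.17% at least 3 times. It was found in neither Etv1 window nor in the first Etv5 window. The longer forms TGAATGAA (1.30% of all windows) and TGAATGGA (1.21%) were in none of the 4 windows. All 3 matches in the second Etv5 window read TGAATGGG, a longer form that was not searched. GGAA occurred 5 times in the first Etv1 window, with 4 of the matches between 7 bases before and 21 bases after the start. It occurred 1 time in the second Etv1 window, 6 times in the second Etv5 window and 0 times in the first. At least 5 matches were found in 28.6% of all windows. CCGGAAGT (3.89% of all windows), TGACTCA (5.20%), TGACGTCA (1.79%) and TGACG (20.8%) were found in none of the 4 windows. These matches describe the letters of the windows, and no binding was measured.

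**Figure D2:**
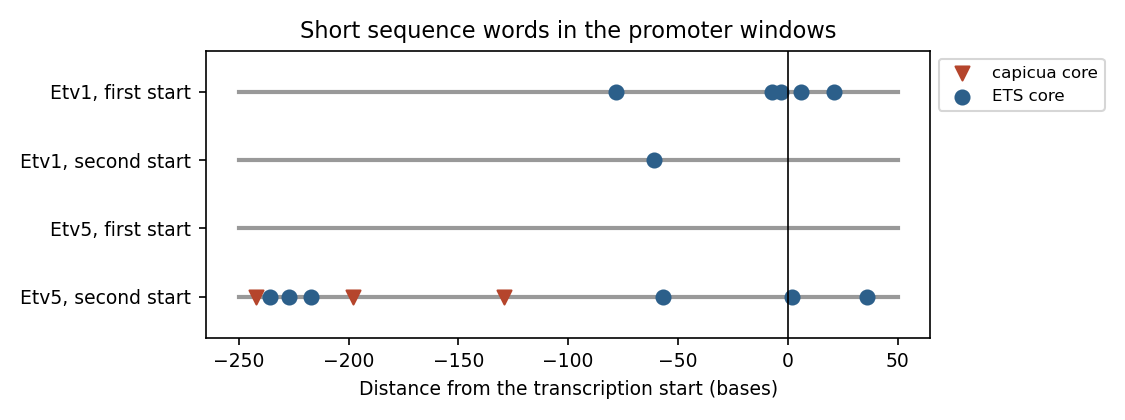
Matches of TGAATG (capicua core, red triangles) and GGAA (ETS core, blue circles) in the 4 promoter windows of Etv1 and Etv5, by distance from the transcription start in bases. The second Etv5 window holds all 3 TGAATG matches, and 4 of the 5 GGAA matches of the first Etv1 window sit beside its start.

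Few of the other ETS genes passed the test. Of 22 measured, 1 rose and 1 fell (9.09% called, against 17.6% of all genes), with a median log2 change of -0.05, against 0.02 over all genes. Elf4, an activator known from lymphocytes, read 8.07, 7.75 and 8.16 in AC9, against 7.59, 7.48 and 7.67 in VECTOR, and rose by 0.41 (limma adjusted p 0.0458). The lowest AC9 array of Elf4 was only slightly above the highest VECTOR array. Erf, a repressor that ERK inactivates, read 8.70, 8.61 and 8.74 in AC9, against 9.08, 9.17 and 8.89 in VECTOR, with a change of -0.36 (adjusted p 0.0401). Neither call held whichever array was left out. Elf4 lost its call without AC9 replicates 1 or 3 or any VECTOR replicate (adjusted p 0.0614 to 0.150), and Erf lost its call without any AC9 replicate or without VECTOR replicates 1 or 2 (0.0757 to 0.124). Erf also lost it after the arrays were centred on their medians (0.0543). At most 1 gene of the list was called whichever array was left out.

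Of the other ETS genes, 13 lay above the negative-control bound on every array, and their changes ran from -0.36 to 0.41. The change of Etv1, at -1.33 as measured, was outside that range, and those of Etv4 and Etv5 were inside it. Unlike those 13 genes, Etv1 lay under the bound on all AC9 arrays, so the size of its change is uncertain. The epithelial factor Ehf, the endothelial factors Fli1 and Erg and the haematopoietic factors Spi1, Spib and Spic were among the 8 under the bound in both groups, so their changes have no stated size.

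**Figure D3:**
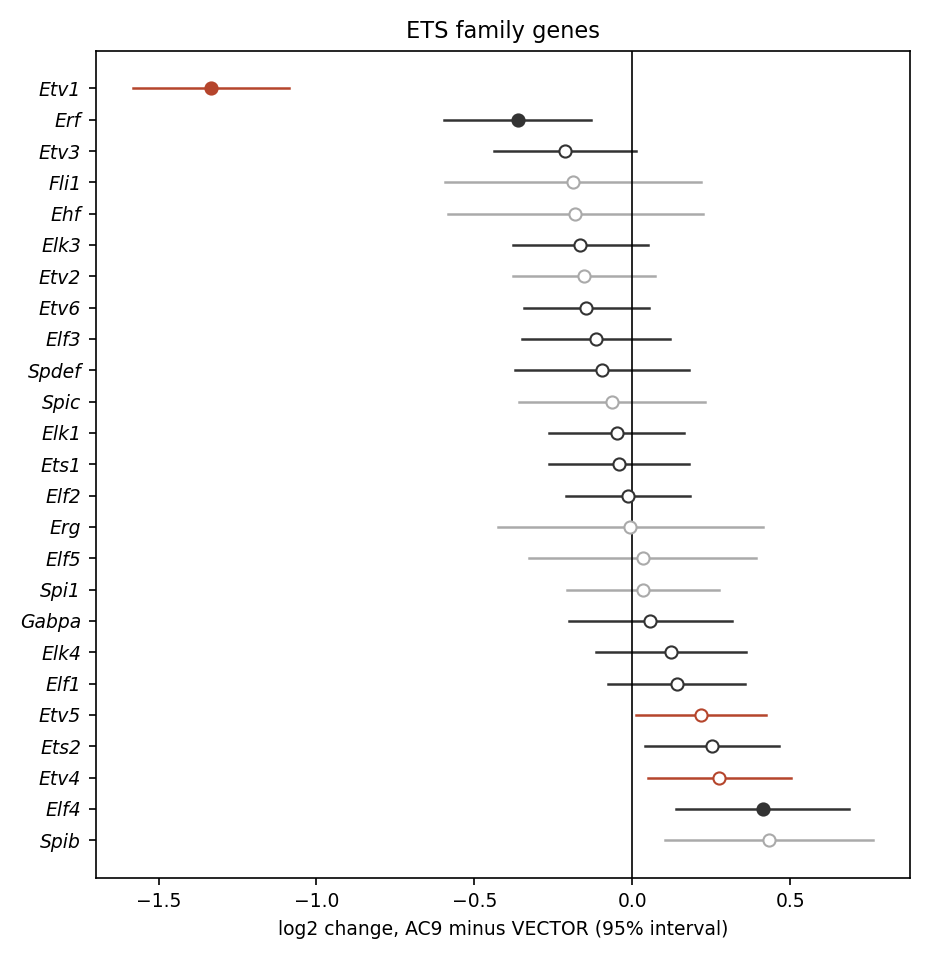
Log2 change (AC9 minus VECTOR) of 25 ETS family genes with 95% intervals from the limma fit, ordered from the lowest at the top; red marks the 3 PEA3 genes, grey the genes under the negative-control bound on every array, and filled points passed an adjusted p of 0.05. Etv1, at -1.33 as measured with all its AC9 arrays under the bound, stands apart from the other ETS genes above the bound on every array. Those run from -0.36 to 0.41.

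Factors that control PEA3 proteins or their genes were divided. Of 23 measured, 4 rose and 3 fell (30.4% called, against 17.6% of all genes and 28.2% of those above the bound on every array), with a median of 0.05. Trib1, the pseudokinase that hands substrates to COP1, read 8.23, 8.50 and 8.47 in AC9, against 9.03, 9.07 and 9.13 in VECTOR. Every AC9 array was lower, as held for 17.7% of all genes, and the change was -0.68 (SE 0.10, limma adjusted p 0.00222). Its relative Trib3, a stress-induced pseudokinase, rose by 0.52 (adjusted p 0.00555). Prkaca, a catalytic subunit of protein kinase A, the kinase that cAMP releases, changed by -0.56 (adjusted p 0.00498). The acetyltransferase Ep300, a coactivator of PEA3 factors, rose by 0.45 (adjusted p 0.0423) but lost its call without any AC9 replicate or without VECTOR replicates 1 or 2 (0.0586 to 0.139). Cop1, with a change of 0.32 (unadjusted limma p 0.024, not passing after adjustment), and Cic, the gene of capicua, with -0.35 (limma adjusted p 0.0541), did not pass. Cic read 8.45, 8.32 and 8.35 in AC9, against 8.53, 8.82 and 8.80 in VECTOR. It passed without VECTOR replicate 1 (0.0277), with the trended prior (0.0108) and with dim genes left out (0.0218). Cop1 and Cic were singled out after their values were seen. The list's count was 3 without AC9 replicate 1 or VECTOR replicate 2, and 4 without AC9 replicate 2 or 3.

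Upstream of the PEA3 genes, the FGF list held the widest falls. Of 19 measured genes, 2 rose and 5 fell (36.8% called, against 17.6% of all genes), with a median of 0.08. Fgf7, a growth factor that mesenchyme makes for epithelium, read 5.26, 5.50 and 5.35 in AC9, against 6.64, 6.79 and 6.99 in VECTOR. It fell in AC9 to under the bound on all 3 arrays, at least 1.64-fold (limma adjusted p 7.45e-05). With the 95th percentile bound also used for Etv1, on average 6.875 in the AC9 arrays, the Fgf7 VECTOR mean of 6.81 lay under it. No lower limit can be given for Fgf7 with that bound. Fgf1, a ligand of all FGF receptors, read 7.72, 8.01 and 7.84 in AC9, against 9.14, 9.41 and 9.26 in VECTOR, a change of -1.41 (SE 0.11). Neither gene's groups came near to overlapping. Fgfrl1, a receptor without a kinase domain, changed by -0.72, and the heparan sulphate proteoglycan Sdc1 by -0.64 (adjusted p 0.000909 and 0.00161). Another ligand, Fgf18, rose by 0.37 (limma adjusted p 0.0382), and was singled out after its value was seen. It lay above the bound on only 1 VECTOR array. Fgf18 lost its call without any AC9 replicate or without VECTOR replicates 1 or 2 (0.0670 to 0.122). The trended prior (0.0632) and the replicate block (0.0652) also removed it.

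Among the kinase receptors for FGF, Fgfr2 and Fgfr4 lay under the bound in both groups and Fgfr3 had a change of -0.05 (limma adjusted p 0.878). Fgfr1 rose by 0.39 (adjusted p 0.0215), named here after its value was seen. It lost its call without AC9 replicates 1 or 3 or VECTOR replicates 1 or 2 (0.0530 to 0.0844). The list's count was 4 without AC9 replicate 1 or VECTOR replicate 1.

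In the chain from receptors to ERK, 4 of 22 measured genes rose and 3 fell (31.8% called, against 17.6% of all genes and 28.2% of those above the bound on every array), with a median of 0.09. A further 7 listed genes were not analysed here. Rps6ka3, the ERK-activated kinase RSK2, read 9.37, 9.22 and 9.37 in AC9, against 8.68, 8.41 and 8.71 in VECTOR, and rose by 0.72 (limma adjusted p 0.00221). All AC9 arrays were above all VECTOR arrays, as held for 17.3% of all genes. Rasa1, which switches Ras proteins off, rose by 0.54 (adjusted p 0.00374). The receptor Erbb2, which is also a reported PEA3 target, changed by -0.52 (0.00446). Mknk2, a kinase that ERK activates to phosphorylate the translation factor eIF4E, changed by -0.45 (0.0457), and lost its call without any AC9 replicate or without VECTOR replicates 1 or 2 (0.0556 to 0.154), with arrays centred on their median (0.0554) and with quantile normalization repeated (0.0562). The count was 4 without AC9 replicate 1 or 3. The kinases that activate ERK, Map2k1 and Map2k2, had changes of 0.10 and -0.13 (adjusted p 0.560 and 0.383).

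Among genes that ERK induces or capicua represses, the class to which the PEA3 genes belong, 8 of 22 measured rose and 2 fell, the PEA3 genes not counted. That is 45.5% called, against 17.6% of all genes and 28.2% of the 9913 genes above the bound on every array, as all 22 were. The list was chosen with earlier results of these data known, so its share may reflect that choice, and the difference between these shares was not tested. The median log2 change was 0.26, against 0.02 over all genes. The cytokine Lif read 9.57, 9.79 and 9.76 in AC9, against 8.33, 8.18 and 8.44 in VECTOR, and rose by 1.39 (SE 0.11). The EGF receptor ligand Hbegf read 10.11, 10.05 and 10.15 in AC9, against 8.70, 8.94 and 9.03 in VECTOR, and rose by 1.21 (SE 0.11). In both genes the AC9 arrays were all higher by more than the whole range of the VECTOR arrays. The immediate early factor Egr1 rose by 0.69 (limma adjusted p 0.00451).

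The feedback inhibitors of ERK in this list did not share a direction. Spry1, a Sprouty inhibitor of receptor signalling, read 6.71, 6.90 and 6.83 in AC9, against 7.47, 7.53 and 7.42 in VECTOR, with a change of -0.66 (limma adjusted p 0.00155). Its relative Spry4 read 8.18, 8.03 and 8.40 in AC9, against 7.55, 7.46 and 7.66 in VECTOR, and rose by 0.65 (0.00511). The opposite shifts of Spry1 and Spry4 were each free of overlap between groups. That held for 17.7% of all genes with AC9 lower and 17.3% with AC9 higher. Dusp5, a nuclear ERK phosphatase, rose by 0.51 (0.00514), and the AP-1 factor Fosl1 by 0.47 (0.00881). Dusp6, the ERK phosphatase most often used as a readout of the pathway, had a change of 0.25 (adjusted p 0.0903), close to those of Etv4 and Etv5, and passed with the trended prior (0.00328) and with dim genes left out (0.0347). Spry4, Dusp5, Fosl1 and Dusp6 were singled out after their values were seen.

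Of 24 measured genes that have been reported as PEA3 targets, 3 rose and 4 fell (29.2% called, against 17.6% of all genes), with a median of -0.08. The prostaglandin synthase Ptgs2 read 11.43, 11.44 and 11.55 in AC9, against 10.04, 9.93 and 10.12 in VECTOR, and rose by 1.45 (limma adjusted p 2.57e-05). Vegfa, the angiogenic growth factor, rose by 0.70 (0.00823). The collagenase Mmp13 read 6.36, 6.48 and 6.16 in AC9, against 7.07, 7.00 and 7.21 in VECTOR, a change of -0.76 (0.00190). The cyclin Ccnd3 changed by -0.62 (0.00400). The proteases Mmp1a, Mmp1b, Mmp2, Mmp3, Mmp7 and Mmp9 all read under that bound in AC9 and VECTOR alike, as did the receptor Cxcr4 and the surfactant gene Sftpc, so their changes have no stated size. The intermediate filament gene Vim, another reported target, had a change of -0.06 (0.693).

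**Figure D4:**
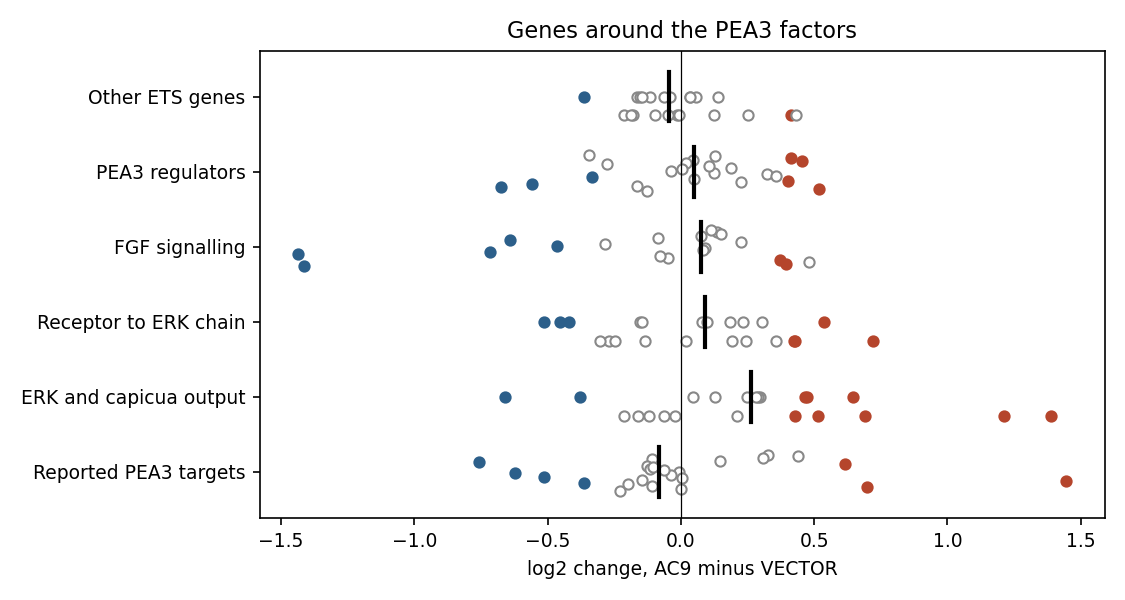
Log2 change (AC9 minus VECTOR) of each measured gene in 6 lists around the PEA3 factors; filled points passed an adjusted p of 0.05 (red higher, blue lower in AC9), open points did not, and black bars are list medians, with vertical scatter within a list carrying no meaning. The list of ERK and capicua output has 8 genes called higher and 2 lower and the highest median, 0.26, and the lowest points, Fgf7 and Fgf1, belong to the FGF list.

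The genes whose values over the 6 arrays lay nearest to each PEA3 gene were found by the root mean square distance between log2 values. Each gene was set to its own mean. The search covered 10544 genes with at least 1 group mean above the bound. Predicted or provisional genes, such as those named Gm, Rik or LOC, had been left out. Nearest to Etv1 were Cmtm3, a membrane protein of the chemokine-like factor family, Stra6, the receptor for retinol-binding protein, and Kirrel3, an adhesion protein, at distances of 0.04, 0.07 and 0.07. Cmtm3 read 8.94, 8.62 and 8.80 in AC9, against 10.16, 10.08 and 9.96 in VECTOR. Like Etv1, Cmtm3 was lowest in AC9 replicate 2 and highest in VECTOR replicate 1. Cmtm3 was above the bound on all 6 arrays, and its log2 change was -1.28 (SE 0.11, limma adjusted p 0.000110). Nearest to Etv4 were Steap3, a metalloreductase, Tnfrsf12a, the receptor of the cytokine TWEAK, and Ssr4, a translocon-associated protein, at distances of 0.02 to 0.03. Nearest to Etv5 were Pank3, a pantothenate kinase, Crebzf, a leucine zipper factor, and Gphn, the scaffold protein gephyrin, at 0.02. These 6 neighbours of Etv4 and Etv5 had changes of 0.21 to 0.28, and 0 of them passed the limma test (adjusted p 0.0822 to 0.156). All the neighbours were picked by these same values, so changes like those of the PEA3 genes follow from the choice. Their nearness over 6 arrays describes the values and nothing more.

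**Figure D5:**
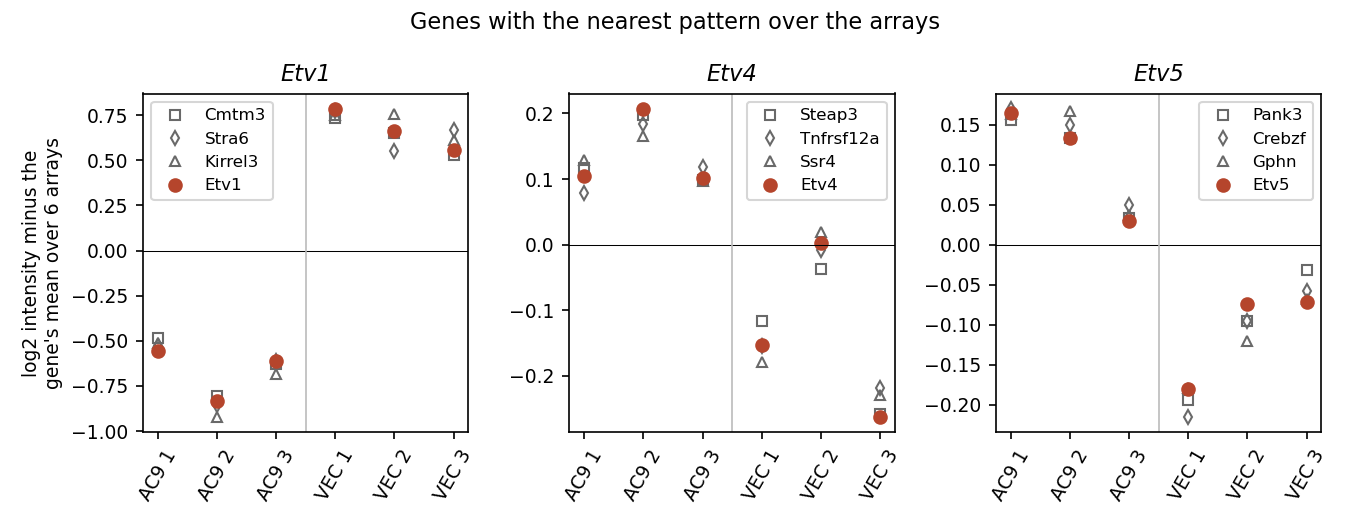
Log2 intensity minus the gene's mean over the 6 arrays for each PEA3 gene (filled red circles) and the 3 genes with the nearest values (open grey symbols), with AC9 arrays on the left and VECTOR (VEC) arrays on the right of each panel; the vertical scales differ between panels. Etv1 and its neighbours are split by group, between -1.28 and -1.41 in log2 change, while those of Etv4 and Etv5 differ by 0.21 to 0.28.

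Most genes beside the PEA3 genes on their chromosomes were too dim to be informative. Of the 6 nearest protein-coding genes with a named probe set, 1 on each side of each PEA3 gene, 4 lay under the bound in both groups, both neighbours of Etv1 on chromosome 12 among them. By limma 0 of the 6 were called (17.6% of all genes were), and 0 had an unadjusted p under 0.05. Tra2b, a splicing factor beside Etv5, read 11.30, 11.27 and 11.13 in AC9, against 11.02, 11.06 and 11.25 in VECTOR, and the groups overlapped. Dhx8, a splicing helicase beside Etv4, had a change of -0.03 (adjusted p 0.880), and its groups overlapped too.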

How the data were processed

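Total RNA of 6 samples was hybridised to Affymetrix Clariom S arrays, 1 per sample, per the labels' protocols. The authors deposited a log2 intensity for each probe set, summarised by RMA according to the submitters' processing notes. The sources used here give neither its version nor a genome build. Of 22206 non-control probe sets, 19572 had 1 gene symbol from GEO's platform annotation. The brightest per symbol was kept, giving 19505 genes, with no further normalization or filter. Differences of AC9 from VECTOR were fitted in limma 3.58.1 under R 4.3.3 (two-sided, Benjamini-Hochberg over all genes, threshold 0.05), and tested on simulated data. Standard errors and 95% intervals come from that fit. The number of arrays limits the precision.

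The members and lists were chosen with earlier results of these data known. Listed genes without a named probe set are not analysed here. Genes were named by rule: the 3 members, Adcy9, up to 4 called genes per list with the largest change, and the 3 nearest patterns per member; all other genes given with values were chosen after their values were seen. Motifs came from RefSeq windows of GRCm38.p6. Alternatives were other priors, normalizations, filters, weights, a replicate block and each array left out.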

Additional observations from a re-analysis of the deposited data

How the results depend on the processing

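Etv1 kept its direction and its call under all 14 alternatives, with log2 changes of -1.39 to -1.25. Etv4 and Etv5 kept their direction under all 14, with 0.21 to 0.35 and 0.17 to 0.26. Etv4 passed with the intensity-trended robust prior and with dim genes left out (change 0.28 in both, adjusted p 0.0411 and 0.0410), and Etv5 with that prior (0.22, 0.0281). Leaving out 1 array at a time gave differences of 1.46 to 1.63 for Etv5 minus Etv1, 1.49 to 1.68 for Etv4 minus Etv1 and -0.11 to 0.024 for Etv5 minus Etv4, which turned positive without VECTOR replicate 3. The genes called numbered 3424, 2174 to 3025 with 1 array left out, and 1670 at an adjusted p of 0.01. With arrays centred on their median, 1861 were higher and 1650 lower, in place of 1612 and 1812. The 6 lists held 39 called genes, 23 to 34 with 1 array left out, and 22 at 0.01. Counts of the list of PEA3 control moved to 11 in place of 7 with the trended prior and with dim genes left out, and that of the receptor-to-ERK list to 12 in place of 7 with that prior. At 0.01 the control list held 3 and the FGF and receptor-to-ERK lists 4 each, in place of 7. Dhx8 gave -0.085 to 0.037 with 1 array left out, positive without AC9 replicate 1. Deviations of same-numbered arrays from their group means had correlations over genes of 0.01, 0.08 and 0.01. Not every array correlated best with its own number, as AC9 replicate 1 did so with VECTOR replicate 3 (0.09). With 3 arrays per group these values cannot show whether same-numbered samples were paired, and the labels do not say. With the replicate number as a block, Erf lost its call (adjusted p 0.0708), 3062 genes were called, Etv1 had an adjusted p of 0.000327, Etv4 0.105 and Etv5 0.201, the lists held 35 called genes, and the 3 differences between members did not change (exact paired permutation p 0.25, 0.25 and 1.00, where 0.25 is the smallest 3 pairs allow). The change of Etv1 is measured against a signal near the negative controls.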
